A study of Sus scrofa with 16 samples.

Results

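Low fecundity sows were compared with high fecundity sows in both phases of the estrous cycle, and the ovarian miRNAs whose fecundity difference changed direction between the phases are described here. The members were chosen by the interaction of fecundity and phase, which is the follicular difference (FL minus FH) minus the luteal difference (LL minus LH) on the log2 scale. All 16 small RNA libraries entered 1 fit. The table held 1940 miRNAs, of which 216 were known pig miRNAs and 1724 were predicted, and 200 known and 245 predicted miRNAs (445 in all) passed the filter on low counts. Of the 200 known miRNAs, 30 (15.0%) were past the threshold for the interaction and 27 of these had opposite signs in the phases, beside 29 of 245 (11.8%) predicted miRNAs past it and 50 of all 445 (11.2%) past it with opposite signs.

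The ovaries came from Canadian Large White sows that the study describes as unrelated, with 1 library per sow and 4 sows in each group. Day 14 of the cycle, in the luteal phase, gave the groups LH (high fecundity) and LL (low), and day 20, in the follicular phase, gave FH (high) and FL (low). Day 1 was the first day of estrus and fecundity was the total number of piglets born. The low fecundity sows were of lower parity than the high fecundity sows, and no sow was seen in both phases. In whole tissue, fewer cells of a type and less RNA per cell cannot be told apart.

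A miRNA is a short RNA that pairs through its seed (bases 2 to 8 of the mature strand) with messenger RNAs and lowers their stability or translation. In the luteal phase the ovary is dominated by corpora lutea, which are built from granulosa and theca cells after ovulation and secrete progesterone. In the follicular phase the corpora lutea have regressed and antral follicles grow and secrete estradiol. The ovaries of the 2 phases thus differ in their cell types.

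Predicted miRNAs have no names that tell their family, so the mature sequences of those with the smallest interaction P, and of 1 further miRNA with the same seed, are given 5′ to 3′ with the seed in capitals.
NovelmiRNA-240: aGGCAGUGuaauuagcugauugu
NovelmiRNA-1528: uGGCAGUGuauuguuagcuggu
NovelmiRNA-1654: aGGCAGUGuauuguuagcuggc
NovelmiRNA-329: uCUGUGCCgaaagcauggggaca
On Sscrofa10.2, the predicted precursor of NovelmiRNA-240 lay at chr9:44167440-44167498, that of NovelmiRNA-1528 at chr16:36468130-36468191 and that of NovelmiRNA-1654 at chr16:36468251-36468312, and that of NovelmiRNA-329 at chr1:301872757-301872821, all on the minus strand. The seed GGCAGUG is that of the miR-34 and miR-449 family, whose members are known from multiciliated epithelium. It was held by 10 of the 1700 predicted entries with a sequence (0.588%). NovelmiRNA-337 had the sequence and the counts of NovelmiRNA-1528, and NovelmiRNA-904 those of NovelmiRNA-329, so each pair is 1 measurement. NovelmiRNA-1654 is shown for its seed and was chosen after its values were seen.

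Library totals ran from 8998496 to 37194836 counts, of which known miRNAs made up 97.1 to 99.2%. Levels are CPM, the count relative to the library total after scaling by TMM factors, which were 1.19 to 1.74 in LL and 0.670 to 1.23 in the other groups, and a count of 0 allowed 0.101 to 0.339 CPM. The summed level of the 7 granulosa and luteal miRNAs on the list was 31903 to 311984 CPM in LH and 165670 to 226370 CPM in LL. LH thus held both the lowest (LH2) and the highest luteal library (LH3). Nearly all of this sum was ssc-miR-21, with a mean of 153926 CPM in LH and 181579 CPM in LL. ssc-miR-202-5p had 1930 and 2203 CPM. The LH2 sum lay below the mean ssc-miR-21 level of FH (52174 CPM) and FL (36408 CPM). Libraries LH4, FL2 and FL4 stood apart through ssc-miR-34c, ssc-miR-429 and further miRNAs described below. Results that rest on these libraries are given with and without them. The lowest within-group correlation of log2 levels was 0.863 (FL) and the highest 0.987 (LL and FH).

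The interaction was past the threshold (unadjusted P under 0.05 and a log2 value of at least 1 in size) for 59 of 445 miRNAs (13.3%), 41 positive (9.21%) and 18 negative (4.04%). No miRNA had an adjusted p under 0.05 in edgeR (smallest adjusted p = 0.0693), where 63 of 445 (14.2%) had an unadjusted P under 0.05, and DESeq2 gave 58 by adjusted p. Among the known miRNAs, 22 of 200 (11.0%) were positive and 8 (4.0%) negative. The split depended on scaling, with 11 positive and 14 negative when library size alone was used, which also moved the median luteal difference of all miRNAs from 0.04 to 0.69 and the median interaction from 0.22 to -0.07. There were 14 negative known miRNAs with TMM factors from known miRNAs and 15 in DESeq2. Without LH1, 16 known miRNAs were negative and 6 miRNAs passed by adjusted p, without FL1 13 and without FL4 14 known miRNAs were negative, and without LH4, FL2 and FL4 together 8 known miRNAs were positive and 17 negative.

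Opposite signs alone were common, since 91 of the 200 known miRNAs (45.5%) and 192 of all 445 (43.1%) had them with no threshold. Among the 27 known miRNAs (13.5%) that were past the threshold with opposite signs, 20 were lower in low fecundity sows in the luteal phase and higher in the follicular phase, and 7 were the reverse. The luteal difference alone had an unadjusted P under 0.05 in 13 of the 27, the follicular difference alone in 7, neither in 2 and both in 5. The 5 were ssc-miR-107, ssc-miR-103, ssc-miR-34c, ssc-miR-190b and ssc-miR-92b-5p, 2.5% of the known miRNAs beside 2.25% of all miRNAs. Over all miRNAs the luteal difference was past the threshold in 15.3% and the follicular difference in 8.31%. Without LH4, FL2 and FL4, no known miRNA had both, and 10 of the 27 were past the threshold with opposite signs. The number of known miRNAs with both was 2 without FL4, 3 without FH1 and 8 without LL4, and 1 with parity in the fit.

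**Figure D1:**
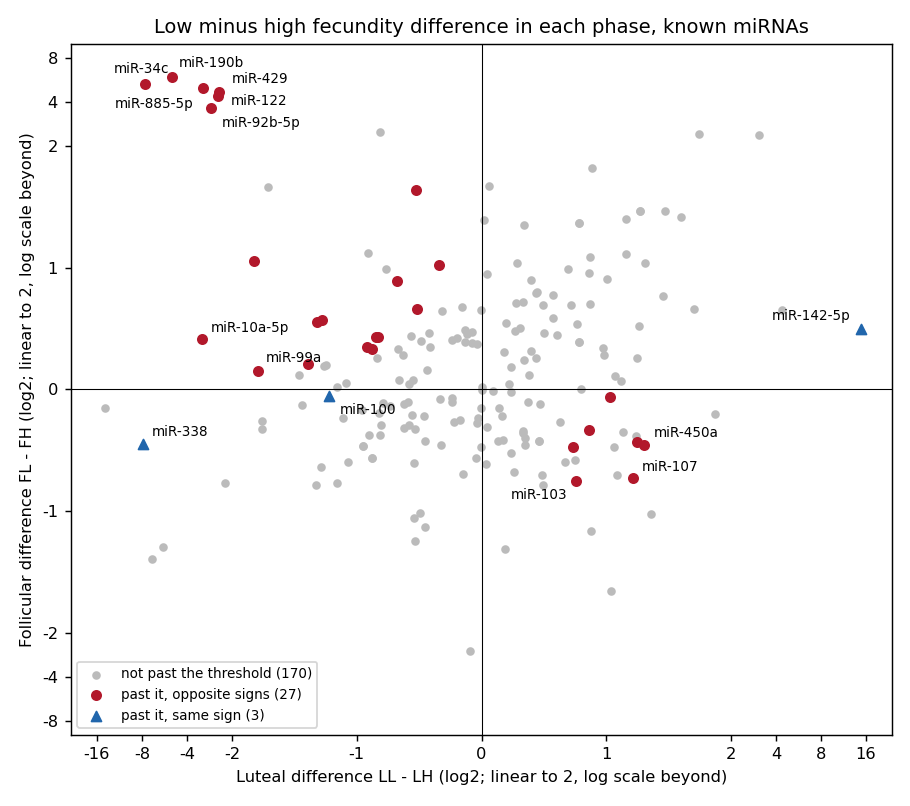
The luteal difference (LL minus LH, x axis) and the follicular difference (FL minus FH, y axis) of the 200 known miRNAs, in log2 units with linear axes up to 2 and log axes beyond. The 27 red points past the interaction threshold lie in the upper left (20) and the lower right (7), and the 3 blue triangles had the same sign in both phases.

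ssc-miR-107 and ssc-miR-103 were higher in low fecundity sows in the luteal phase and lower in the follicular phase, with no overlap between fecundity groups in either phase. They are paralogs that lie in introns of pantothenate kinase genes and are known for roles in insulin sensitivity and lipid metabolism. In the luteal phase ssc-miR-107 stood at 694, 316, 614 and 521 CPM in LH and at 1417, 1175, 1317 and 1065 CPM in LL. In the follicular phase it stood at 852, 411, 544 and 400.3 CPM in FH and at 276, 307, 363 and 384 CPM in FL. Every LL sow lay above every LH sow, and every FL sow lay below every FH sow. The luteal difference was 1.21 (SE 0.29) and the follicular difference -0.73 (SE 0.29), and the interaction was -1.95 (SE 0.41, edgeR unadjusted P = 0.000311, adjusted p = 0.0693, exact permutation p = 0.000408).

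The level of ssc-miR-103 was 3621, 2746, 5351 and 3048 CPM in LH and 7063, 6133, 6366 and 5418 CPM in LL. It was 4471, 2170.2, 3029 and 2275 CPM in FH and 1722, 1489, 1898 and 1990.2 CPM in FL. The lowest LL sow stood just above the highest LH sow, and the highest FL sow stood below the lowest FH sow. The interaction was -1.51 (SE 0.37, edgeR unadjusted P = 0.00103, adjusted p = 0.0813, exact permutation p = 0.000408), from a luteal difference of 0.76 and a follicular difference of -0.75. The exact test was two-sided and permuted fecundity labels within phases, its null is that fecundity makes no difference in either phase, and 0.000408 is the smallest p that its 4900 arrangements allow.

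With TMM factors no other miRNA was separated in both phases with opposite directions, which 2 of 445 (0.449%) were. Separation between LL and LH was seen in 59 (13.3%) and between FL and FH in 10 (2.25%). It was seen in both phases in the same direction in 1 (0.225%), NovelmiRNA-1249. The separation depended on scaling. With library size alone both ssc-miR-107 and ssc-miR-103 overlapped between FH and FL, and with RLE factors or TMM factors from known miRNAs ssc-miR-103 overlapped between LH and LL. With RLE factors or TMM factors from known miRNAs, ssc-miR-499-5p was also separated in both phases, higher in LL and lower in FL. The interaction kept its sign and its side of the threshold in those fits, from -2.33 to -1.95 for ssc-miR-107 and from -1.93 to -1.51 for ssc-miR-103. Leaving out each library in turn gave -2.10 to -1.71 and -1.70 to -1.28. Without LH4, FL2 and FL4 the values were -1.98 and -1.35, still past the threshold, and the follicular differences (-0.77 and -0.69) then had an unadjusted P just above 0.05. With parity in the fit both interactions stayed past the threshold. Only 1 of the 5 known miRNAs with both phases at an unadjusted P under 0.05 remained so in that fit. Hence ssc-miR-107 and ssc-miR-103 did not both keep both phases.

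The mature strands are near-identical, so reads may be split between both entries, and ssc-miR-107 held 10.3 to 17.1% of their sum. With the counts summed, the level was 3062 to 5965 CPM in LH, 6483 to 8479 CPM in LL, 2582 to 5323 CPM in FH and 1796 to 2374 CPM in FL. The summed entry was again separated in both phases, except between luteal groups with RLE factors and between follicular groups with library size alone, and its interaction was -1.57 (SE 0.36, edgeR adjusted p = 0.0948, exact permutation p = 0.000408). The follicular minus luteal difference of the sum was -0.26 in high fecundity sows (edgeR adjusted p = 0.736) and -1.83 in low fecundity sows (adjusted p = 0.00215). Summing was chosen after seeing the data.

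**Figure D2:**
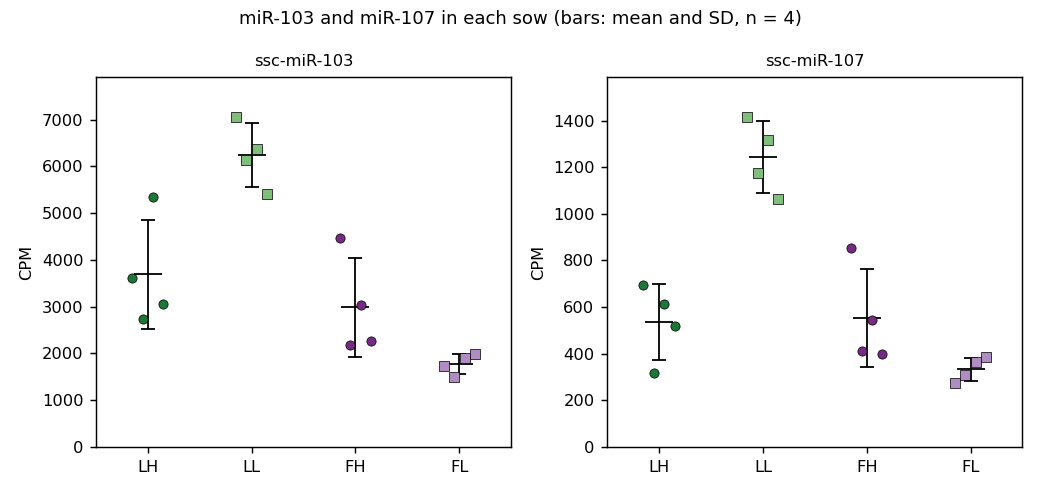
Levels of ssc-miR-103 and ssc-miR-107 in CPM (y axes, from 0) in each sow of the 4 groups, with the group mean and SD (n = 4) as bars. LL is above LH and FL is below FH in both panels, without overlap.

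The wider seed group of ssc-miR-107 holds the miR-15 and miR-16 family, known for cell cycle control. None of ssc-miR-15a, ssc-miR-15b, ssc-miR-16, ssc-miR-195 and ssc-miR-497 was past the threshold, with interactions of -0.56 to 0.65, so 2 of the 7 members on the list were. The median of the list was -0.13, beside 0.23 over the known miRNAs.

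A second set with a luteal excess in low fecundity sows came from the X-linked cluster that holds miR-450, ssc-miR-542-5p and their relatives. The level of ssc-miR-450a was 932, 393, 352 and 266 CPM in LH and 919, 1014, 1413 and 1455 CPM in LL. It was 411, 200.3, 227 and 456 CPM in FH and 228, 176, 265 and 276 CPM in FL. LH1 alone among the LH sows reached the LL range, and the follicular groups overlapped. The interaction was -1.76 (SE 0.55, edgeR adjusted p = 0.166, exact permutation p = 0.0139), with a luteal difference of 1.31 (unadjusted P under 0.05) and a follicular difference of -0.45 (unadjusted P above 0.05).

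Its neighbour ssc-miR-450c-5p stood at 1414, 588, 513 and 322 CPM in LH and at 1213, 1581, 1855 and 2081 CPM in LL. It stood at 515, 248, 292 and 534 CPM in FH and at 318, 196, 318 and 347 CPM in FL. LH1 was again the LH sow inside the LL range, and FL2 was the lowest FL sow. The interaction was -1.68 (SE 0.58, edgeR adjusted p = 0.189, exact permutation p = 0.0163). Of their other neighbours within 10000 bases on the RefSeq annotation, ssc-miR-542-5p had -1.05 and ssc-miR-450b-5p -0.52, and neither was past the threshold. The 2 calls held in every fit that left out a library and without LH4, FL2 and FL4 together (-1.51 and -1.33).

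From another X-linked cluster, ssc-miR-362 was past the threshold at -1.10 (SE 0.51, edgeR adjusted p = 0.339, exact permutation p = 0.0576), with LL at 167 to 176 CPM, all above the 56.1 to 112 CPM of LH. Its follicular difference was -0.06 and was 0.22 when library size alone was used, so its reversal depended on scaling. The call was lost without LH2, LH4, LL3, FH1, FL1 or FL3 (-1.11 to -0.79). Its cluster neighbours ssc-miR-532-5p (-0.90) and ssc-miR-500 (-0.63) were not past the threshold, and 1 of the 3 members on that list was. ssc-miR-532-5p was past it with library size alone (-1.28), with TMM factors from known miRNAs (-1.01), and without LH1 (-1.05) or FL1 (-1.07).

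The remaining 2 miRNAs of this direction were ssc-miR-499-5p, which lies in an intron of the myosin gene MYH7B, and ssc-miR-218, which lies in introns of the SLIT genes. The level of ssc-miR-499-5p was 56.7 to 127 CPM in LH, 137 to 154 CPM in LL, 63.0 to 86.5 CPM in FH and 36.0 to 69.8 CPM in FL. The luteal groups did not overlap, and the interaction was -1.21 (SE 0.46, edgeR unadjusted P = 0.0185, exact permutation p = 0.00286) and -1.52 without LH4, FL2 and FL4. With RLE factors or TMM factors from known miRNAs, every FL sow also lay below every FH sow for ssc-miR-499-5p. The other muscle miRNAs on its list had luteal differences of the opposite sign, -2.25 for ssc-miR-1 and -1.76 for ssc-miR-133b among them. The summed level of that list was 2155 to 3256 CPM in LH and 449 to 984 CPM in LL, with ssc-miR-208b not tested.

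For ssc-miR-218 the interaction was -1.20 (SE 0.47, edgeR unadjusted P = 0.0242, exact permutation p = 0.0176), and the call was lost in 7 of 16 fits that left out a library (LH2, LH3, LH4, LL2, FH2, FL2 or FL3), where it was -1.12 to -0.93. Without LH4, FL2 and FL4 the value was -1.08, not past the threshold. The level of ssc-miR-218 was 352 to 807 CPM in LH, 685 to 1456 CPM in LL, 381 to 473 CPM in FH and 221 to 458 CPM in FL, which overlapped in both phases.

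The larger direction, low in LL and not low in FL, held ssc-let-7c and ssc-miR-99a, which lie in 1 cluster. let-7 is known to restrain proliferation and growth-factor genes, and the miR-99/100 family is known to target MTOR. The level of ssc-let-7c was 15705, 32227, 15508 and 18337 CPM in LH and 10339.8, 7755, 12721 and 13783 CPM in LL. It was 22022, 28966, 27891 and 38268 CPM in FH and 37099, 44388, 38475 and 27189 CPM in FL. Every LL sow was below every LH sow, and 3 of the 4 FL sows were above 3 of the 4 FH sows. The interaction was 1.20 (SE 0.39, edgeR unadjusted P = 0.00793, exact permutation p = 0.00612), the luteal difference -0.87 (SE 0.29) and the follicular difference 0.33 (SE 0.28). The interaction was 0.84 without LH2 and 0.88 with library size alone, under the threshold of 1 in both, and the luteal groups overlapped with library size alone.

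ssc-miR-99a, 1 of the most abundant miRNAs named here, stood at 106065, 206519, 63904 and 105703 CPM in LH and at 14637, 20923, 31440.1 and 72586 CPM in LL. It stood at 95051, 114462, 142321 and 176746 CPM in FH and at 207580.0, 160735, 147364 and 70846 CPM in FL. LL4 overlapped with LH3, and the follicular groups overlapped throughout. The luteal difference was -1.79, the follicular difference 0.15 and the interaction 1.94 (SE 0.69, edgeR unadjusted P = 0.0135, exact permutation p = 0.038).

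ssc-miR-100 had nearly the same luteal pattern but no reversal. It was 5012 to 8928 CPM in LH and 1944 to 4876 CPM in LL, without overlap, and 8492 to 13179 CPM in FH and 8414 to 11934 CPM in FL. The luteal difference was -1.23, the follicular difference -0.06 and the interaction 1.17 (SE 0.40, edgeR unadjusted P = 0.0102, exact permutation p = 0.0408). With library size alone the interaction was 0.86, below the threshold, and the follicular difference was 0.22, and without LH4, FL2 and FL4 the interaction was 1.25 with an unadjusted P above 0.05.

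Of the let-7 family, ssc-let-7c was the 1 of 7 members past the threshold. ssc-let-7i had a comparable P at a smaller size, with an interaction of 0.91 (SE 0.28, edgeR unadjusted P = 0.00532, exact permutation p = 0.00367), which was 1.01 to 1.08 and past the threshold without LH4, LL2 or FL2. The other 5 members lay between -0.29 and 0.29, and the median of the family was 0.22, as over all miRNAs tested (0.22).

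ssc-miR-29b, of a family known to target collagen and other matrix genes, was 109.9, 179, 248 and 265 CPM in LH and 117, 91.5, 105 and 111 CPM in LL. It was 244, 340.4, 308 and 453 CPM in FH and 378, 358, 588 and 389.7 CPM in FL. LH1 alone lay among the LL sows, whose values were close together, and the follicular groups overlapped. The interaction was 1.27 (SE 0.43, edgeR unadjusted P = 0.0102, exact permutation p = 0.0143) and was 0.88 and not past the threshold with library size alone. The follicular minus luteal difference was 2.01 in low fecundity sows (edgeR adjusted p = 0.00188) and 0.75 in high fecundity sows (adjusted p = 0.231). Its cluster neighbour ssc-miR-29a had an interaction of 0.35 and was not past the threshold.

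**Figure D3:**
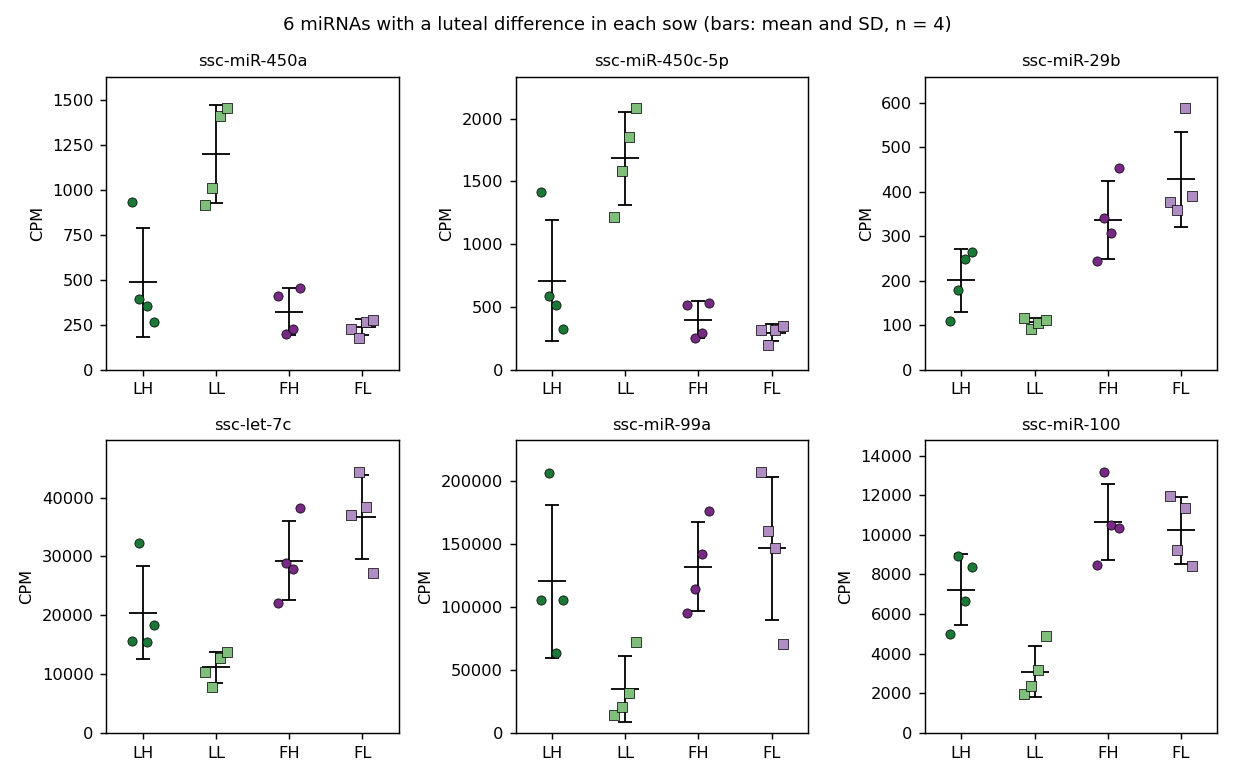
Levels in CPM (y axes, from 0) of 6 miRNAs in each of the 4 sows of a group, with the group mean and SD as bars. LL is high for ssc-miR-450a and ssc-miR-450c-5p and low for ssc-miR-29b, ssc-let-7c, ssc-miR-99a and ssc-miR-100, and FH and FL overlap in every panel.

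ssc-miR-145-5p, known as a marker of vascular smooth muscle, was past the threshold at 1.27 (SE 0.57, edgeR unadjusted P = 0.0422, exact permutation p = 0.0694), from 7778 to 17969 CPM in LH, 4589 to 8956 CPM in LL, 19299.9 to 49059 CPM in FH and 17484 to 68002 CPM in FL. The call was lost in 11 of 16 fits without a library (without LH2, LH3, LH4, LL1, LL2, FH1, FH3, FH4, FL2, FL3 or FL4, 0.94 to 1.31), without LH4, FL2 and FL4 together (0.96), and with library size alone (0.97), RLE factors (1.16) or TMM factors from known miRNAs (1.15). The co-clustered miR-143, whose arms ssc-miR-143-3p and -5p carried the same counts, had 0.49 and was not past the threshold. The mean level of miR-143, with its identical entries taken once, was 143048 CPM in LH and 73845 CPM in LL, and 263218 CPM in FH and 190574 CPM in FL. The part of these levels in the luteal difference was not tested.

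The miR-181 family, known for setting antigen sensitivity in T cells, had 4 of 4 members with a positive interaction, a sign that 115 of the 200 known miRNAs and 243 of all 445 had, and 2 past the threshold, and the list median was 0.90. The cluster mates past it were ssc-miR-181d-5p (1.18, SE 0.42, exact permutation p = 0.011) and ssc-miR-181c (1.26, exact permutation p = 0.0502). For ssc-miR-181d-5p the levels were 168 to 312 CPM in LH, 133 to 187 CPM in LL, 223 to 338 CPM in FH and 301 to 599 CPM in FL. It was among the 7 in which the follicular difference alone (0.66) had an unadjusted P under 0.05. The call was lost without LH2 (0.93) and without LH4, FL2 and FL4 (0.65). It was also lost with library size alone (0.93) and with TMM factors from known miRNAs (0.98). The luteal difference of -0.51 became 0.14 with library size alone. For ssc-miR-181c the call was lost in 12 of 16 fits without a library (all but LH1, LH3, FH4 and FL1, 0.98 to 1.34) and without LH4, FL2 and FL4 together (0.76). It was also lost with library size alone (0.99), RLE factors (1.19) or TMM factors from known miRNAs (1.09).

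In the imprinted DLK1-DIO3 locus, whose miRNAs are known from growth and muscle, 6 of 6 tested members had a positive interaction (115 of the 200 known miRNAs did), with a median of 0.98, and 1 was past the threshold, a share near that of all known miRNAs. That member, ssc-miR-381, was 467 to 1218 CPM in FH and 863 to 2593 CPM in FL, with an interaction of 1.37 (SE 0.60, edgeR unadjusted P = 0.0381, exact permutation p = 0.062). The call was lost in 8 of 16 fits without a library (without LH1, LH3, LL1, LL3, FH2, FH3, FH4 or FL4, 1.01 to 1.31), without LH4, FL2 and FL4 together (1.28) and with library size alone (1.10). Its luteal difference of -0.34 became 0.23 with library size alone. Its list mates ssc-miR-127 (1.61) and ssc-miR-376c (1.01) were not past the threshold.

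Among the largest interactions of the reversing miRNAs were those of a set that was high in LH4, FL2 and FL4 and low in the other 13 libraries. Its leading member ssc-miR-34c is known from multiciliated epithelium such as that of the oviduct, and ssc-miR-429 belongs to the miR-200 family, which keeps epithelial identity by repressing ZEB1 and ZEB2. The level of ssc-miR-34c was 49.7, 42.0, 115 and 21379 CPM in LH and 22.1, 18.3, 40.7 and 31.7 CPM in LL. It was 82.5, 196, 145 and 142 CPM in FH and 55.7, 7335, 85.1 and 15224 CPM in FL. LH4, FL2 and FL4 exceeded every other library, of which the highest was FH2. The luteal difference was -7.58 and the follicular difference 5.33. The interaction was 12.91 (SE 3.08, edgeR unadjusted P = 0.000879, exact permutation p = 0.0633) with all libraries, 6.49 without LH4, and 0.23 without the 3 libraries, where it was not past the threshold.

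ssc-miR-190b had 0.502, 0.280, 0.937 and 46.0 CPM in LH, 0.304, 0.516, 0.296 and 0.310 CPM in LL, 0.766, 1.13, 0.564 and 0.763 CPM in FH, and 0.922, 24.1, 0.380 and 168 CPM in FL. ssc-miR-92b-5p had 28.7, 42.0, 33.7 and 386 CPM in LH, 14.9, 16.8, 18.1 and 21.5 CPM in LL, 20.2, 21.6, 33.0 and 30.8 CPM in FH, and 26.1, 265, 22.3 and 983 CPM in FL. ssc-miR-429 had 2.01, 2.84, 10.6 and 103 CPM in LH, 0.946, 1.03, 0.962 and 18.7 CPM in LL, 1.79, 4.06, 4.44 and 4.76 CPM in FH, and 2.93, 42.5, 2.37 and 341 CPM in FL. In all 3 miRNAs the same libraries were the highest. ssc-miR-885-5p was likewise high in LH4 (43.1 CPM), FL2 (25.5 CPM) and FL4 (61.8 CPM), and at most 1.59 CPM elsewhere.

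With all libraries, the interactions were 10.94 for ssc-miR-190b, 6.40 for ssc-miR-92b-5p, 7.14 for ssc-miR-429 and 8.15 for ssc-miR-885-5p. Without LH4, FL2 and FL4 they were 0.45, 0.86, -0.63 and -4.10, and none was past the threshold. By the exact permutation test with all libraries, p was 0.0763 for ssc-miR-190b, 0.00653 for ssc-miR-92b-5p, 0.0886 for ssc-miR-429 and 0.213 for ssc-miR-885-5p. Leaving out LH4 alone gave 6.47 for ssc-miR-190b, 4.52 for ssc-miR-429 and 1.61 for ssc-miR-885-5p, and leaving out FL4 alone gave 4.42 for ssc-miR-429 and 6.64 for ssc-miR-885-5p. The last 3 of these values were not past the threshold.

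Of the predicted miRNAs shown above with the seed GGCAGUG, NovelmiRNA-240 and NovelmiRNA-1528 were high in the same 3 libraries, and the entry NovelmiRNA-1654 in FL4 alone (7811 of its 8110 counts, beside 0 in LH4 and FL2). A separate entry with the same mature sequence and an overlapping position, NovelmiRNA-1676, had 4118 counts in LH4 and 0 in all others. That sequence was thus high in both LH4 and FL4, split between entries. NovelmiRNA-240 was at 3192 CPM in LH4, 1014 CPM in FL2 and 2070.1 CPM in FL4 and at most 25.2 CPM elsewhere, and NovelmiRNA-1528 was at 1242, 350.1 and 2701 CPM and at most 37.3 CPM elsewhere. In LH2 NovelmiRNA-1528 had 0 counts, while NovelmiRNA-1316, with the same mature sequence and an overlapping position, had 64 there and 0 in all others. The 0 of NovelmiRNA-1528 in LH2 thus also came with a split between entries. Summed over the miRNAs with this seed, with entries of identical counts taken once (8 of 10), 209076 counts fell in the 3 libraries and 5137 counts in the other 13. The interactions of NovelmiRNA-240 and NovelmiRNA-1528 were 13.09 and 11.91 (exact permutation p = 0.0453 and 0.209), 6.87 and 4.87 without LH4, and 0.67 and -1.11 without the 3 libraries. The summed level of the 7 epithelium miRNAs on the list was 22315 CPM in LH4, 7930 CPM in FL2 and 16382 CPM in FL4. It was 389 to 1439 CPM in the other 13, and no member was at 0 in any library. Nearly all of the sum in the 3 libraries was ssc-miR-34c (21379, 7335 and 15224 CPM). The sum thus does not show that the 7 rose together. The part of these 7 miRNAs in the interactions was not tested. Of the 7, ssc-miR-34c and ssc-miR-429 were past the threshold, and the list median was 1.45. The interactions of ssc-miR-182 (0.199), ssc-miR-183 (-0.0296) and ssc-miR-31 (-0.680) were small or negative. Those of ssc-miR-205 (1.45) and ssc-miR-135 were positive and not past the threshold.

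**Figure D4:**
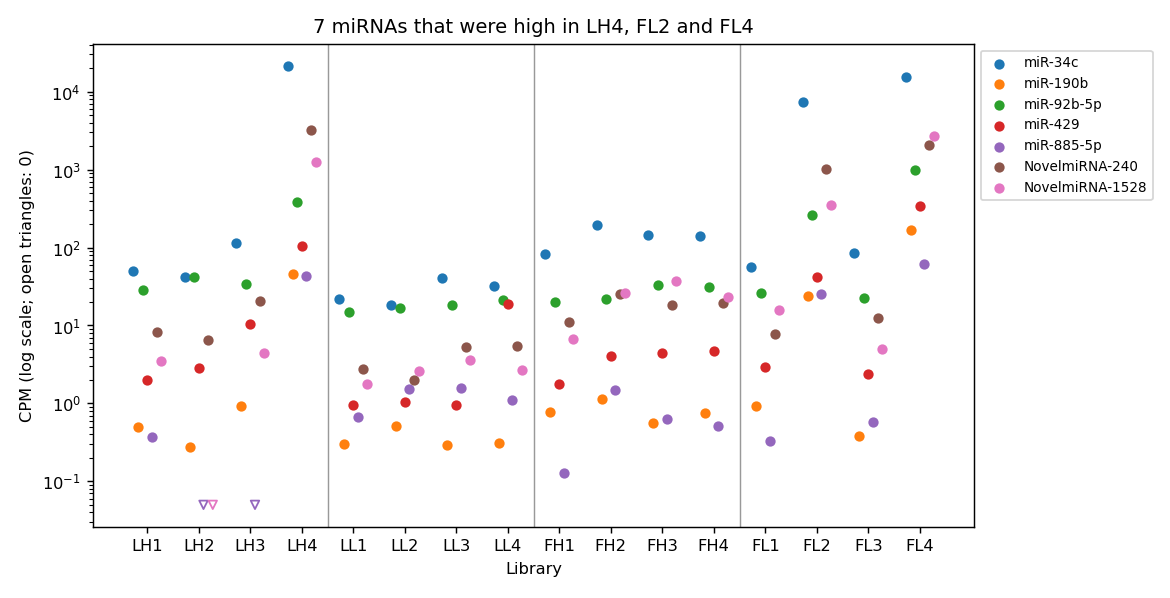
Levels in CPM (y axis, log scale) of 7 miRNAs in each of the 16 libraries (x axis), with open triangles for a level of 0. LH4, FL2 and FL4 are high in all 7, 1 of the high libraries being a luteal high fecundity sow and the other 2 follicular low fecundity sows.

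ssc-miR-122, the miRNA of hepatocytes, was 4.77, 79.0, 99.5 and 6.96 CPM in LH and 28.1, 1.81, 2.22 and 1.76 CPM in LL. It was 33.4, 3.27, 7.47 and 41.5 CPM in FH and 30.1, 1363, 277 and 113 CPM in FL. Values varied widely within groups and the groups overlapped in both phases. The interaction was 6.86 (SE 2.04, edgeR unadjusted P = 0.00455, exact permutation p = 0.0102) and was 5.80, still past the threshold, without LH4, FL2 and FL4. The other liver or intestine miRNAs on the list were not past the threshold, and the list's summed level was highest in LL4 (2673 CPM) and FL2 (1711 CPM).

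ssc-miR-10a-5p, which lies in a HOX gene cluster, was 498, 427, 1555 and 7978 CPM in LH and 138, 361, 221 and 435 CPM in LL. It was 2040.0, 5428, 2515 and 2097 CPM in FH and 4402, 2023, 2319 and 7341 CPM in FL. LH4 and FL4 were again the highest libraries, and LH2 lay within the LL range. The interaction was 3.59 (SE 1.15, edgeR unadjusted P = 0.00746, exact permutation p = 0.0412), 1.92 and past the threshold without LH4, and 1.67 and not past it without the 3 libraries.

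A further 6 members that also lost their call without LH4, FL2 and FL4 follow. ssc-miR-9 and ssc-miR-138, known from neural tissue, had interactions of 1.85 and 2.17 (exact permutation p = 0.0269 and 0.0196). For ssc-miR-9 the levels were 35.1 to 82.5 CPM in LH, 14.5 to 35.5 CPM in LL, 46.8 to 68.0 CPM in FH and 40.2 to 176 CPM in FL, with FL4 the highest, and the interaction was 1.24 without FL4 and 1.13 without the 3 libraries, not past the threshold in either. ssc-miR-138 was at 0.699 to 6.43 CPM in all libraries, every FL sow lay above every FH sow, and its luteal difference of -0.52 became 0.18 with library size alone. Its call was lost in 13 of 16 fits without a library (all but LH2, LL3 and FL3, 1.67 to 2.29), and the value was 1.59 without the 3 libraries. The other neural miRNAs on the list were not past the threshold.

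ssc-miR-204, best known from the retina, was 66.7 to 226 CPM in LH and 32.8 to 74.8 CPM in LL, and its interaction of 1.60 (exact permutation p = 0.0367) was 1.18 without LH4 and 0.61 without the 3 libraries. ssc-miR-582 had 2.88 (exact permutation p = 0.0624), with 2.03 without LH4 and 2.19 without FL4, neither past the threshold, and 0.85 without the 3 libraries. ssc-miR-150, known from mature lymphocytes, had 1.87 (exact permutation p = 0.0567), was not past the threshold without LH4, LL1, LL2, FH1, FH4 or FL4 (1.13 to 1.74), and had 0.41 without the 3 libraries. With library size alone the calls of ssc-miR-204 (1.39), ssc-miR-150 (1.71) and ssc-miR-138 (1.87) were lost. ssc-miR-320, known for a biogenesis that bypasses DROSHA, was 655 to 1917 CPM in LH, 451 to 897 CPM in LL, 1028 to 2368 CPM in FH and 1173 to 3684 CPM in FL, with an interaction of 1.57 (exact permutation p = 0.0269), 1.14 without LH2, 1.31 with library size alone and 1.23 without the 3 libraries, not past the threshold in any of them.

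The same interaction can be read as a phase change that differed by fecundity. Of the 30 known miRNAs past the threshold, the phase change (follicular against luteal) was larger in size in low than in high fecundity sows in 28. It was past the same threshold in low fecundity sows in 27 of the 30, beside 30.1% of all miRNAs, and in high fecundity sows in 6 of the 30, beside 12.8%. Both phase changes enter the interaction that chose these 30, so the counts are a description. The 2 exceptions were ssc-miR-381, at -1.33 in high and 0.04 in low fecundity sows, and ssc-miR-142-5p, which was at 0 in LH.

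The other 3 known miRNAs past the threshold had the same sign in both phases, and 2 of them rested on zeros. ssc-miR-338 was 0.439, 1.91, 1.11 and 2.60 CPM in LH, at 0 in all 4 LL libraries, 1.55 to 9.25 CPM in FH and 1.17 to 6.46 CPM in FL. Against the limit that a count of 0 over the LL group allows, it was at least 12.9-fold higher in LH and at least 23.1-fold higher in FL than in LL. The exact permutation p of ssc-miR-338 was 0.244. The leukocyte miRNA ssc-miR-142-5p was listed at 0 in all LH libraries, in LL2 and in FL1, and at 149 to 513 CPM in all others. Against such a limit over the LH group, which covers counting error only, it was at least 1140-fold higher in LL than in LH. Its exact permutation p was 0.0714. The other leukocyte miRNAs on the list had luteal differences of -1.32 (ssc-miR-150), -0.17 (ssc-miR-155-5p), 0.38 (ssc-miR-146a-5p) and 0.57 (ssc-miR-146b). Among the 216 known miRNAs, 16 had a 0 in some library and at least 1000 counts in another, so whether such a 0 is a missing RNA or a missing assignment of reads was not tested.

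NovelmiRNA-329, whose sequence is shown above, was another such case, at 1.86 to 3.40 CPM in LL, 1.98 CPM in FH1 and 0 in all others. Its fitted interaction depended on FH1, without which it was not past the threshold. Lists that gave none past the threshold were the miR-17-92 and paralog clusters, the miR-30 family, the miR-23/27/24 clusters, the granulosa and luteal list, the stromal list and the erythrocyte list. Their members of smallest P were ssc-miR-92a (0.44), ssc-miR-30a-5p (0.60), ssc-miR-24-1-5p (-0.88), ssc-miR-224 (-1.79), ssc-miR-214 (0.48) and ssc-miR-486 (0.89), and exact permutation p was 0.366, 0.29, 0.0351, 0.0261, 0.364 and 0.373. Some of these were past the threshold in other fits. ssc-miR-224 was so with TMM factors from known miRNAs, in DESeq2 (-1.90) and without LH3 (-2.59), and ssc-miR-24-1-5p with library size alone (-1.22), TMM factors from known miRNAs (-1.01), and without LH4 (-1.03) or FL3 (-1.01). The granulosa and luteal list had a median interaction of -1.48 with 2 of 7 positive.

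Of the 6 miRNAs that the study placed in its regulation networks, which were chosen on these samples and are no independent evidence, ssc-miR-885-5p was past the threshold. ssc-miR-1343, ssc-miR-1249 and ssc-miR-1307 had positive differences in both phases with all libraries, with interactions of -0.74, -1.04 and -0.05, and without LH4, FL2 and FL4 ssc-miR-1343 was past the threshold at -1.60. It then had opposite signs, with a luteal difference of 1.16 and a follicular difference of -0.45. The follicular differences of ssc-miR-1249 (-0.21) and ssc-miR-1307 (-0.19) also turned negative in that fit, where their interactions were not past the threshold. ssc-miR-1249 was past it without LH1 (-2.06). ssc-miR-671-5p had 0.93, which was 0.26 without FL4 and -0.49 without LH4, FL2 and FL4, and ssc-miR-361-3p was listed at 0 in 12 libraries, so that its interaction is not given. For ssc-miR-1, a muscle miRNA, the luteal difference of -2.25 and the follicular difference of -0.77 had the same sign, and the interaction was 1.47 (exact permutation p = 0.437). It was past the threshold without FL2 (1.93), without FL4 (1.84), with the clean read share in the fit (1.15) and without LH4, FL2 and FL4 together.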

How the data were processed

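Small RNA libraries (NEBNext, Illumina HiSeq X10) were made from the ovaries of 16 sows, 4 per group, with groups taken from the labels. The authors trimmed reads with Trimmomatic v0.30, mapped them to Sscrofa10.2 with Bowtie2 2.1.0 and predicted miRNAs with miRDeep v2.0.0.7. The rule that assigned a read to a miRNA entry is not given in the sources used here. The authors deposited raw counts per miRNA and library, without normalization, and named DESeq2. PCR reads carry no molecular identifiers, so limits for a count of 0 (3 counts) cover counting error only.

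Counts were fitted in R 4.3.3 with edgeR 4.0.16 (TMM, filter of at least 10 counts and a total of 15, quasi-likelihood test) as 4 group means over all 16 libraries. The threshold was the study's, an unadjusted P under 0.05 with a log2 value of at least 1 in size, and adjusted p is Benjamini-Hochberg over 445 miRNAs. Exact permutation tests (Python 3.11.15, NumPy 2.4.6) used log2(CPM + 1) and 4900 arrangements. They are two-sided and not adjusted for the number of miRNAs named. Sequences and positions of predicted miRNAs came from the study's supplement, with starts counted from 1, and neighbours from RefSeq Sscrofa11.1 (all 30 known miRNAs past the threshold matched). The fit was tested on simulated data, where 64 of 164 tested miRNAs with a 4-fold change were past the interaction threshold and 31 passed by adjusted p. With nothing changed, 19 of 369 were past the threshold and 0 passed by adjusted p.

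Named miRNAs are the known ones past the threshold with opposite signs (24 of smallest P) or the same sign (up to 4), those with both phases at P under 0.05, the member of smallest P in each of 19 lists, network miRNAs of the study, ssc-miR-103, ssc-miR-107 and ssc-miR-1, and 4 predicted miRNAs. Values in every library are given for the first 12. Others (ssc-miR-138, ssc-miR-181c, ssc-miR-362 and list members or neighbours) were named after their values were seen. The members and lists were chosen with earlier results of these data known. The alternatives were DESeq2 1.42.0, RLE, library size only, TMM on known miRNAs, other filters, identical entries collapsed, robust estimation, a replicate block, parity or the clean read share as covariate, a pseudocount of 0.5 and leaving out each library. Leaving out LH4, FL2 and FL4 together and summing ssc-miR-103 and ssc-miR-107 were added after seeing the data.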

Additional observations from a re-analysis of the deposited data

Results flagged for a closer look

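For ssc-miR-107 (interaction -1.95) and ssc-miR-103 (-1.51) with TMM factors, every low fecundity sow was on one side of every high fecundity sow in the luteal phase and on the other side in the follicular phase. With library size alone both overlapped between FH and FL. With RLE factors or TMM factors from known miRNAs, ssc-miR-103 overlapped between LH and LL. The difference was tested as the interaction (edgeR adjusted p = 0.0693 and 0.0813), and the members were chosen by it.

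A sow that stood apart from the other 3 of its group, by Dixon's test on log2(CPM + 1), was found in 18 of 173 groups of 4 over the 45 named miRNAs (10.4%). Chance flags about 1 in 20 independent groups, but the share cannot be read against that, since these miRNAs were mostly chosen by their interaction and move together, and NovelmiRNA-329 and NovelmiRNA-904 carry the same counts. LH4 stood above its group for ssc-miR-34c (21379 CPM), ssc-miR-190b (46.0 CPM), ssc-miR-92b-5p (386 CPM) and ssc-miR-885-5p (43.1 CPM). LL2 stood apart for ssc-miR-190b (0.516 CPM), ssc-miR-582 (0.877 CPM) and ssc-miR-142-5p (0 CPM), LL1 for ssc-miR-122 (28.1 CPM) and LL4 for ssc-miR-429 (18.7 CPM). In the follicular phase, FL2 stood apart for ssc-miR-450c-5p (196 CPM) and ssc-miR-361-3p (181 CPM), FL1 for ssc-miR-320 (1173 CPM) and ssc-miR-142-5p (0 CPM), FH1 for ssc-miR-499-5p (86.5 CPM), NovelmiRNA-329 (1.98 CPM) and NovelmiRNA-904 (1.98 CPM), and FH4 for ssc-miR-361-3p (201 CPM). In LH, LH2 stood apart for ssc-miR-92a (3516 CPM).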

How the results depend on the processing

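With all libraries and TMM factors, 59 miRNAs (41 positive, 18 negative) were past the threshold, 63 had an unadjusted P under 0.05 and 0 an adjusted p under 0.05. Known miRNAs past it were 30 (22 positive, 8 negative), 27 reversed and 5 reversed with both phases at P under 0.05. The luteal difference gave 68 (1 by adjusted p) and the follicular difference 37 (0). Library size only gave 11 known positive and 14 negative, with 2 reversed in both phases, and TMM on known miRNAs 14 known negative. DESeq2 gave 58 by adjusted p (54 luteal, 20 follicular) and 15 known negative. No filter gave 122 (78 positive, 44 negative), 123 by unadjusted P, 24 by adjusted p, 176 luteal (36 by adjusted p) and 136 follicular (15). The replicate block gave 39 (22 positive), 41 by unadjusted P, 14 known positive, 18 follicular, 0 luteal by adjusted p and 3 reversed in both phases. The sows are separate animals that share only a number, 9 of 24 same-numbered pairs had deviations that correlated above 0.1, and 5 of 16 libraries correlated best with their own number. Parity gave 21 follicular, 0 luteal by adjusted p and 1 reversed in both phases, and the clean read share 14, 0 and 2. Without LH4, FL2 and FL4 there were 24 positive and 29 negative, 8 known positive and 17 negative, 10 follicular, 0 luteal by adjusted p and 0 reversed in both phases. Interactions then changed sign for ssc-miR-429 (-0.63), ssc-miR-885-5p (-4.10), ssc-miR-671-5p (-0.49) and NovelmiRNA-1528 (-1.11). The causes were not tested.

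Leaving out each library in turn gave 57 to 79 past the threshold, 37 to 57 positive, 16 to 31 negative, 58 to 83 by unadjusted P and 0 to 6 by adjusted p. For known miRNAs it gave 26 to 39, with 15 to 25 positive and 7 to 16 negative, 23 to 33 reversed and 2 to 8 reversed in both phases. Luteal counts were 56 to 111 (111 without LL4) and 0 to 3 by adjusted p, and follicular counts 20 to 63 (20 without FL4, 63 without FL1) and 0 by adjusted p. ssc-miR-1307, near 0 at -0.05, ranged from -0.49 to 0.19. MiRNAs near 1 CPM rest on few counts.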
